A study of Mus musculus with 8 samples.

Results

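Desmosomal cadherins, plakins and plakophilins were examined in unsorted suspensions of mammary cells of parous FVB/NHanHsd mice and virgin mice of the same age and strain. The members were the probe sets whose only gene symbol in the array annotation was Dsc1, Dsc2, Dsc3, Dsg2, Dsg3, Dsp, Jup, Pkp1, Pkp2 or Pkp3. Of these 10 genes, 9 were measured, out of 19937 genes named by a probe set of their own, each on 1 of the 34760 probe sets of the array, and Dsc1 was not analysed here. Parous mice were mated when 42 days old and lactated for 21 days. The sample labels give 28 days for involution, whereas the methods of the study give a longer period after weaning. Virgin mice of the same age were housed alike, and the stage of the estrous cycle in each pool is not given. RNA came from the fourth mammary glands, pooled from 5 mice per array, with 4 Affymetrix Mouse Gene 1.0 ST arrays of parous and 4 of virgin mice. Because lymph nodes, adipocytes, red blood cells and part of the fibroblasts were removed but no cells were sorted, each array measured a mixture, in which fewer cells of a type and less RNA per cell cannot be told apart.

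Desmosomes are the junctions that tie the keratin filaments of neighbouring epithelial cells together. Their cadherins, the desmocollins and desmogleins, meet between the cells, plakoglobin (Jup) and the plakophilins bind the tails of the cadherins inside the cell, and desmoplakin (Dsp) links this plaque to keratin. In the mammary gland, desmosomes hold luminal cells to each other and to the basal cells, and the isoforms of each family differ between layers of stratified epithelia.

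The values are log2 expression values after robust multi-array averaging (RMA), which corrects background, equalizes the arrays by quantile normalization and gives 1 value per probe set. The medians of the 8 arrays lay between 6.29 and 6.43, and correlations between arrays ranged from 0.976 to 0.993. Virgin replicates 2 and 4 stood apart from the other 6 arrays on the first principal component (-32.7 and -66.8, against 12.7 to 25.8 for the parous and 9.35 and 11.4 for the remaining virgin arrays). These arrays also had the highest average of 9 proliferation markers (Mki67, Top2a and others): with the mean of the 8 arrays subtracted from each marker, the average was -0.91 to -0.57 across parous arrays, 1.35 and 1.89 for virgin replicates 2 and 4, and -0.24 and -0.25 for the remaining virgin arrays. The epithelial markers Epcam, Krt8 and Krt18 were bright on every array, with log2 means of 11.47, 13.11 and 13.02 in parous and 11.55, 13.28 and 13.13 in virgin suspensions. Of 9 keratinocyte and cornification markers, 8 (Krt1, Lor, Ivl and others) had log2 means of 4.11 to 6.02 in parous and 4.06 to 6.12 in virgin suspensions, below the median of every array, whereas Sprr1a had 8.61 in parous and 10.56 in virgin suspensions.

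Dsc2, Dsp and Pkp1 were lower in cells from parous mice, and the other 6 members did not pass the test. A gene was called where the adjusted p of limma (Benjamini-Hochberg over all 34760 probe sets) was under 0.05, the groups differed by more than 1.5-fold and the mean log2 value was over 2. By these criteria 3 of the 9 members were lower and 0 were higher, where 0.158% of all probe sets were lower and 0.239% higher. The study had already reported Dsc2 as downregulated in these total mammary cells, so this count is not independent of earlier results. The 4 parous values lay below the 4 virgin values in 4 of the 9 members, against 4.06% of all probe sets. All 9 log2 fold changes (parous minus virgin) were below 0, as were 49.6% of all probe sets. Their median was -0.52, beside 0.00 over all probe sets. At an unadjusted p under 0.05 in limma 7 members were lower, against 6.14% of all probe sets, and 0 were higher, against 5.26%. By unadjusted p, Pkp1 ranked 10, Dsp 12 and Dsc2 17 among the 34760 probe sets.

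**Figure D1:**
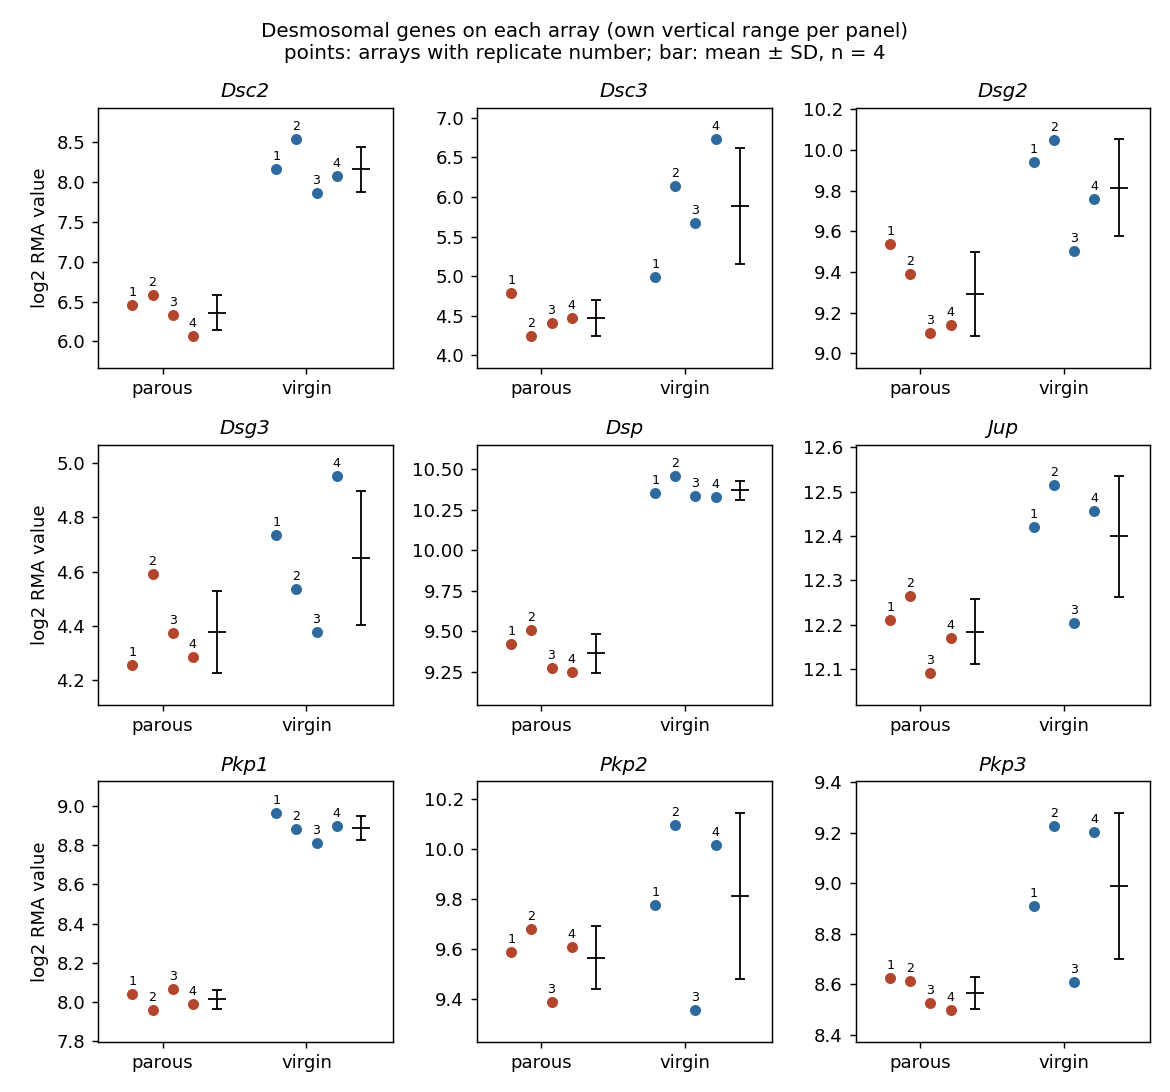
Log2 RMA values of the 9 measured genes on each array, parous left and virgin right, with replicate numbers at the points and the mean ± SD (n = 4) to the right of each group. Vertical ranges differ between panels. In Dsc2, Dsc3, Dsp and Pkp1 every parous array lies below every virgin array, and in Pkp2 the virgin arrays span 9.36 to 10.10.

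Among the desmocollins, the calcium-dependent adhesion proteins of the junction, Dsc2 is the form found in simple as well as stratified epithelia. Its log2 values were 6.45, 6.58, 6.34 and 6.06 in parous replicates 1 to 4, against 8.16, 8.54, 7.87 and 8.07 in virgin replicates 1 to 4. The groups were separated by a gap of 1.28 between the highest parous and the lowest virgin array, wider than the range within either group (0.52 in parous and 0.67 in virgin arrays). Dsc2 was 3.49-fold lower (log2 fold change -1.80, 95% confidence interval -2.17 to -1.43, standard error 0.16, limma adjusted p = 0.0045). Parous values lay near the array medians. Without virgin replicates 2 and 4 the log2 fold change was -1.66 (adjusted p = 0.026 from limma). With no moderation of the variance between probe sets its adjusted p was 0.083, the only alternative fit in which Dsc2 did not pass.

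Dsc3, the desmocollin typical of basal layers of stratified epithelia, had log2 values of 4.78, 4.24, 4.41 and 4.47 in parous replicates 1 to 4. In virgin replicates 1 to 4 they were 4.99, 6.14, 5.68 and 6.73. The groups did not overlap, but the gap was 0.21 while the virgin arrays ranged over 1.74. All parous values and virgin replicates 1 to 3 were below the array medians (lowest 6.29), a range in which RMA values compress differences. The log2 fold change was -1.41 (standard error 0.33, 95% confidence interval -2.16 to -0.66) with an adjusted p of 0.15 from limma. Virgin replicates 2 and 4, high in proliferation markers, held the highest values of Dsc3, and without them the log2 fold change was -0.86 (adjusted p = 0.34 from limma).

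The desmogleins are the partner cadherins of the desmocollins, and Dsg2 is the form of simple epithelia. Its log2 values were 9.54, 9.39, 9.10 and 9.14 in parous replicates 1 to 4, against 9.94, 10.05, 9.50 and 9.76 in virgin replicates 1 to 4. A single parous array, replicate 1, reached above the lowest virgin array, replicate 3. The log2 fold change was -0.52 (95% confidence interval -0.85 to -0.19, standard error 0.15, limma adjusted p = 0.22). Dsg3, a desmoglein of stratified epithelia, was dim on every array, at 4.26 to 4.59 in parous and 4.38 to 4.95 in virgin suspensions. Its log2 fold change was -0.27 (95% confidence interval -0.58 to 0.04, adjusted p = 0.505 from limma), and its groups overlapped.

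The desmosomal cadherin genes neighbour each other on chromosome 18. Between Cdh2 (N-cadherin) and Ttr (transthyretin), the RefSeq annotation of GRCm38.p6 orders them as Dsc3, Dsc2, Dsc1, Dsg1c, Dsg1a, Dsg1b, Dsg4, Dsg3 and Dsg2. Along this row the log2 fold changes were -0.56 for Cdh2 (adjusted p = 0.38), -1.41 for Dsc3, -1.80 for Dsc2, 0.00 for Dsg1c, 0.09 for Dsg1b, -0.01 for Dsg4, -0.27 for Dsg3, -0.52 for Dsg2 and -0.03 for Ttr (adjusted p = 0.95; both from limma). Dsg1c, Dsg1b and Dsg4, desmogleins of skin and hair, had log2 means of 3.88, 4.29 and 4.12 in parous and 3.87, 4.20 and 4.13 in virgin suspensions, far below the array medians. Of the genes measured in this row, Dsc2 passed the criteria and the others did not, and Dsg1a, like Dsc1, was not analysed here.

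Desmoplakin, the plakin that anchors keratin filaments to the plaque, had log2 values of 9.42, 9.51, 9.28 and 9.25 in parous replicates 1 to 4. In virgin replicates 1 to 4 they were 10.35, 10.46, 10.34 and 10.33. The virgin arrays lay within 0.13 of each other, and the gap to the highest parous array was 0.82. Dsp was 2.01-fold lower (log2 fold change -1.004, 95% confidence interval -1.19 to -0.82, standard error 0.082, limma adjusted p = 0.0027). Without virgin replicates 2 and 4 the log2 fold change was -0.98 (adjusted p = 0.029 from limma). Plakoglobin, the armadillo protein that desmosomes share with adherens junctions, had a bright signal on every array. Its log2 values were 12.21, 12.26, 12.09 and 12.17 in parous replicates 1 to 4, against 12.42, 12.51, 12.20 and 12.46 in virgin replicates 1 to 4, with 1 virgin array, replicate 3, within the range of the parous arrays. The log2 fold change of Jup was -0.21 (95% confidence interval -0.41 to -0.01, standard error 0.088, limma adjusted p = 0.40), and without virgin replicates 2 and 4 it was -0.13.

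The promoters of these plaque genes are shown because Dsp was called and Jup was not, and they were the only members with an entry in the RefSeq promoter table used here (GRCm38.p6). The stretches lie upstream of the annotated start, on the plus strand for Dsp (chr13:38151044-38151293) and on the minus strand for Jup (chr11:100397840-100398040), and capitals mark the GC box, GGGCGG or its complement CCGCCC.
Dsp: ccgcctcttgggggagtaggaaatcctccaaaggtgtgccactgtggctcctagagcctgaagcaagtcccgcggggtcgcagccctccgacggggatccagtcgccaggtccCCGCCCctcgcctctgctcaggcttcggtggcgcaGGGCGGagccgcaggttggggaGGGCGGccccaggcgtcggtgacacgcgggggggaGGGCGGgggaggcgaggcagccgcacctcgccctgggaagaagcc
Jup: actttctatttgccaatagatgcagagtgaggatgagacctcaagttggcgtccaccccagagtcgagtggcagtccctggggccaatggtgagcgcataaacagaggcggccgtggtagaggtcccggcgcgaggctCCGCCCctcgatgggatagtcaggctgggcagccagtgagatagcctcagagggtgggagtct
The Dsp stretch of 250 bases was 72.4% G and C and held 4 GC boxes, a motif found on either strand in 32.7% of all promoter windows of this length. The Jup stretch of 201 bases was 60.2% G and C and held 1 GC box (24.8% of windows of that length) and 2 CCAAT boxes (28.6%), of which Dsp had 0. Neither held TATAAA, the AP-1 motif TGANTCA, the E-box CACCTG or the Grainyhead-like motif AACCGGTT on either strand; these are matches of letters in a window, not binding sites.

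**Figure D2:**
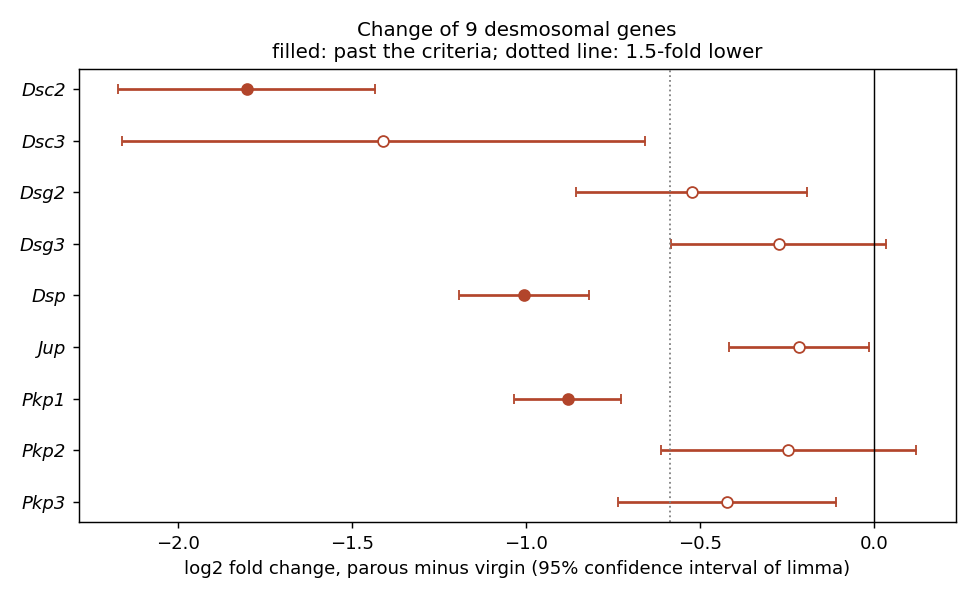
Log2 fold change (parous minus virgin) of the 9 genes with the 95% confidence interval of limma; filled points pass the criteria and the dotted line marks a 1.5-fold decrease. The intervals of Dsc2, Dsc3, Dsp and Pkp1 lie wholly beyond the dotted line, although Dsc3 did not pass the adjusted p, and those of Dsg3 and Pkp2 include 0.

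The plakophilins are armadillo proteins that gather desmoplakin and cadherins at the plaque, with Pkp1 foremost in upper layers of stratified epithelia, Pkp2 in simple epithelia and basal layers, and Pkp3 in most epithelia. Pkp1 had log2 values of 8.04, 7.96, 8.06 and 7.99 in parous replicates 1 to 4, against 8.97, 8.89, 8.81 and 8.90 in virgin replicates 1 to 4. Both groups were tight, with a gap of 0.75 between them. Pkp1 was 1.84-fold lower (log2 fold change -0.88, 95% confidence interval -1.03 to -0.73, standard error 0.067, limma adjusted p = 0.0022), and the log2 fold change was the same to 2 decimals without virgin replicates 2 and 4 (adjusted p = 0.026 from limma).

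Pkp2 had log2 values of 9.59, 9.68, 9.39 and 9.61 in parous replicates 1 to 4, against 9.78, 10.10, 9.36 and 10.02 in virgin replicates 1 to 4. The virgin arrays spanned the whole range of the parous arrays. The log2 fold change was -0.25 (95% confidence interval -0.61 to 0.12, standard error 0.16, limma adjusted p = 0.63), and -0.00086 without virgin replicates 2 and 4. Pkp3 had log2 values of 8.63, 8.61, 8.53 and 8.50 in parous replicates 1 to 4, against 8.91, 9.23, 8.61 and 9.20 in virgin replicates 1 to 4. Virgin replicate 3 lay among the parous arrays and virgin replicates 2 and 4 lay highest. The log2 fold change was -0.42 (95% confidence interval -0.74 to -0.11, standard error 0.14, limma adjusted p = 0.30), and without these highest arrays it was -0.19. Proliferation markers were also high on these arrays, and their part in the values of Dsc3, Pkp2 and Pkp3 was not tested. Virgin replicate 3 was the lowest virgin array in 7 of the 9 members, and virgin replicate 2 was the highest in 6. For neither count was a share over all probe sets computed. The mean of the pan-epithelial markers used below had the same extremes among virgin arrays, lowest in replicate 3 (11.49) and highest in replicate 2 (11.79).

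To ask whether isoforms of a family changed unequally, the log2 difference between 2 members was taken on each array, so that the brightness of a probe set cancels when groups are compared, and tested by exact permutation of the 8 arrays (2-sided, smallest possible p = 0.029), with adjustment over the 5 pairs. For Pkp1 against Pkp2 the difference of the log2 fold changes was -0.63 (95% confidence interval -1.06 to -0.21, exact permutation p = 0.029, adjusted p = 0.071). For Pkp1 against Pkp3 the difference was -0.46 (95% confidence interval -0.80 to -0.11, exact permutation p = 0.029, adjusted p = 0.071). In both pairs the 4 parous differences lay below the 4 virgin differences, the most extreme arrangement of the arrays, yet neither passed after adjustment. Pkp2 against Pkp3 gave 0.18 (95% confidence interval 0.02 to 0.33, exact permutation p = 0.086, adjusted p = 0.14). The intervals of these differences come from a t distribution with equal variances and no moderation, not from the permutation test. That of Pkp2 against Pkp3 therefore lies above 0 although its permutation test did not pass. The cadherin pairs do not answer the question. Dsg3 on every array, and Dsc3 on all arrays but virgin replicate 4, were too dim for the size of their change to be read. The measured differences were -0.39 for Dsc2 against Dsc3, with a range of -0.70 to -0.09 when 1 array was left out (-0.09 without virgin replicate 1), and -0.25 for Dsg2 against Dsg3, with a range of -0.37 to -0.13 (-0.13 without virgin replicate 2).

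**Figure D3:**
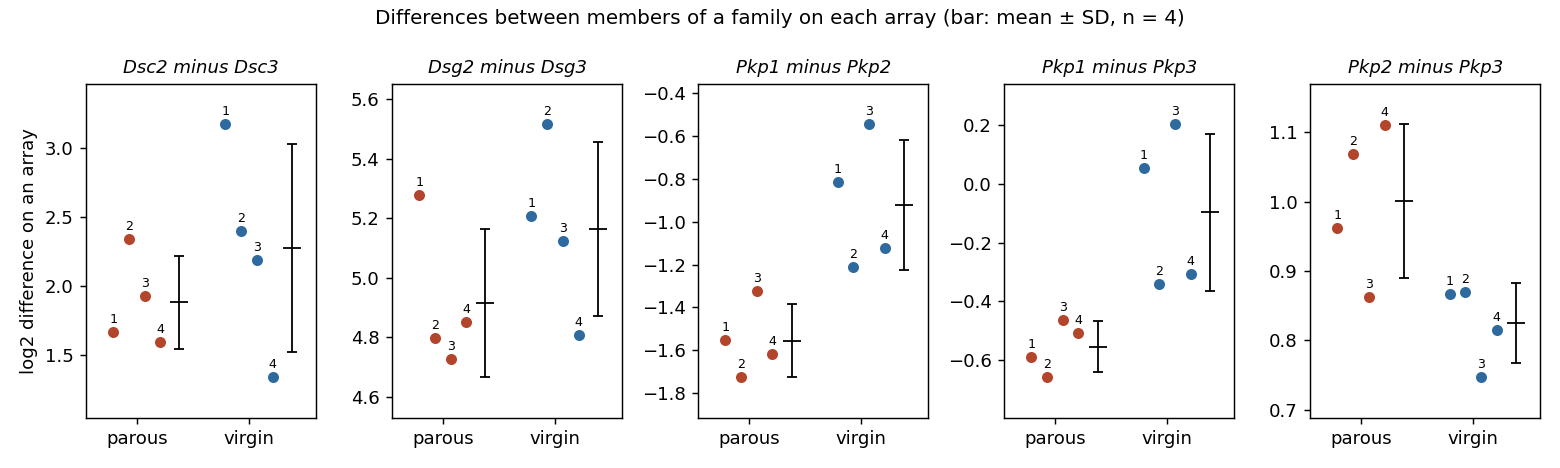
Log2 difference between 2 members of a family on each array, parous left and virgin right, with replicate numbers at the points and the mean ± SD (n = 4). Vertical ranges differ between panels. The parous arrays lie below the virgin arrays for Pkp1 minus Pkp2 (means -1.56 and -0.92) and Pkp1 minus Pkp3 (means -0.55 and -0.10), and the groups overlap in the other 3 panels.

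Epithelial markers were themselves somewhat lower in parous suspensions, and the members were therefore also set against them. The mean log2 value of 10 pan-epithelial markers was 11.42 ± 0.06 in parous and 11.64 ± 0.12 in virgin suspensions (SD, n = 4). The difference was -0.22 with no overlap (exact permutation test, 2-sided, p = 0.029). The groups were only narrowly apart, with parous replicate 2 at 11.47 and virgin replicate 3 at 11.49. The markers were Epcam, Cdh1, Krt8, Krt18, Cldn3, Cldn4, Cldn7, Esrp1, Esrp2 and Elf3, so this reference itself holds junction and keratin genes. Elf3 alone had a log2 fold change above 0 (0.42, adjusted p = 0.37 from limma). In limma 0 of the 10 passed the criteria (6 lower and 1 higher at an unadjusted p under 0.05), 9 had a log2 fold change below 0 (median -0.23), and the largest changes were those of the tight junction gene Cldn7 (-0.60, adjusted p = 0.22) and the splicing regulator Esrp2 (-0.48, adjusted p = 0.23; both from limma). The log2 of the summed linear values of the 10 ranged over 15.16 to 15.30 in parous and 15.33 to 15.55 in virgin arrays.

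Relative to this mean on the same array, Dsc2 was lower by 1.58 on the log2 scale in parous suspensions (difference -1.58), Dsc3 by 1.19 (difference -1.19), Dsp by 0.79 (difference -0.79) and Pkp1 by 0.66 (difference -0.66). In these 4 of the 9 members, the same 4 as in the values themselves, the groups did not overlap. Exact permutation tests (2-sided) gave p = 0.029 for each, the smallest possible p, and were not adjusted over the 9 members compared. How many of all probe sets separate in such a ratio was not computed. Dsc3 was only narrowly apart, with parous replicate 1 at -6.68 and virgin replicate 1 at -6.65. It was also too dim, on all arrays but virgin replicate 4, for the size of its change to be read. The log2 ratio of Jup to the markers varied least of the 9 within groups and was 0.77 ± 0.02 in parous and 0.76 ± 0.05 in virgin suspensions (SD, n = 4). Pkp2 and Dsg3 differed by -0.03 and -0.05 relative to the markers, Pkp3 by -0.20 and Dsg2 by -0.30, and in all 4 the groups overlapped. Dsg3 was dim in both groups, so the size of its change relative to the markers cannot be read. Set against 9 basal and myoepithelial markers in place of the pan-epithelial ones, the same 4 members had no overlap. Their differences were -1.56 for Dsc2, -1.17 for Dsc3, -0.77 for Dsp and -0.64 for Pkp1. Dsc3 was again only narrowly apart (-5.85 in parous replicate 1 and -5.76 in virgin replicate 1). The mean of the basal markers also differed in level, at 10.62 ± 0.08 in parous and 10.86 ± 0.11 in virgin suspensions (SD, n = 4). The 9 markers did not move alike. Krt14 (-0.75), Trp63 (-0.60) and Krt5 (-0.52) had the largest log2 fold changes, 7 were below 0, and 2, Myh11 (0.24) and Mylk (0.20), were above 0.

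**Figure D4:**
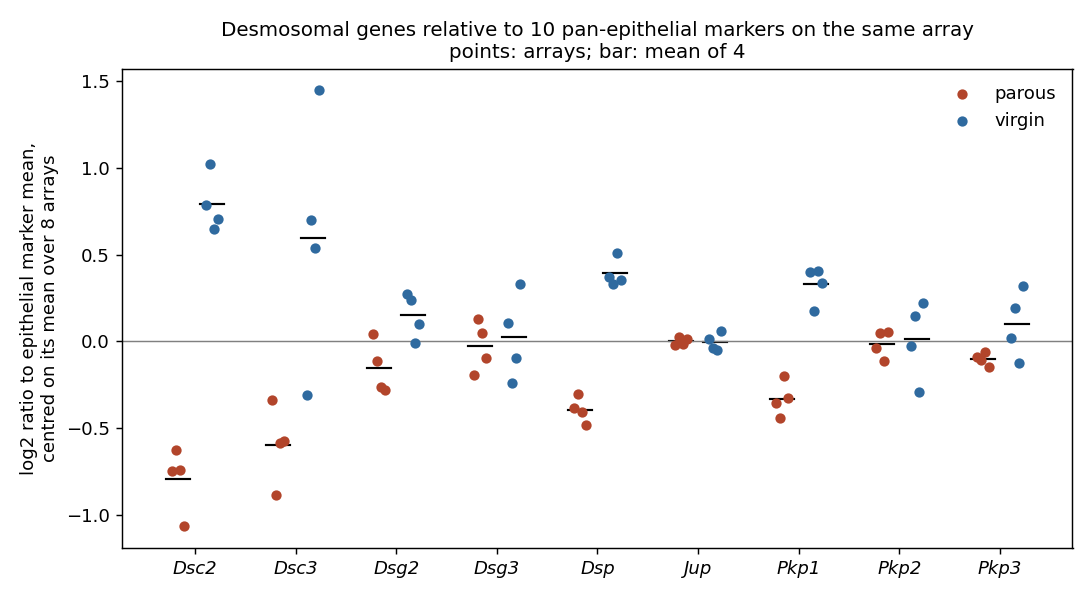
Log2 ratio of each gene to the mean of 10 pan-epithelial markers on the same array, centred on its mean over the 8 arrays; points are arrays, parous left and virgin right for each gene, and the bar is the mean of 4. Dsc2, Dsp and Pkp1 are separated, Dsc3 only narrowly, and the points of Jup lie closest together.

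Among the other lists of junction and filament genes, calls were found in the keratins. Tight junction genes were not taken as a list, and the claudin Cldn6, given below, passed. Of 15 keratins, 3 were lower and 0 higher (median log2 fold change -0.52, against 0.00 over all probe sets). In all, 0.397% of probe sets passed in either direction. At an unadjusted p under 0.05 in limma 9 keratins were lower, against 6.14% of all probe sets, and 0 were higher, against 5.26%. Krt4, a keratin of wet stratified epithelia, had -2.74 as its log2 fold change (adjusted p = 0.0045), Krt6a, a keratin induced in activated epithelium, -1.99 (adjusted p = 0.038), and Krt17, a keratin of basal and appendage epithelium, -1.18 (adjusted p = 0.017; all from limma). Krt15 had -2.11 and did not pass (adjusted p = 0.18 from limma), with a virgin SD of 1.24. Krt19 had -0.47, below the 1.5-fold criterion (adjusted p = 0.044 from limma). Krt8 and Krt18, the pair that fills luminal cells, had log2 fold changes of -0.17 and -0.11 and did not pass. The basal keratins Krt5 and Krt14 had -0.52 and -0.75 (adjusted p = 0.31 and 0.11 from limma). Of 9 keratinocyte and cornification markers, Sprr1a, which encodes a small proline-rich protein of the cornified envelope, alone was lower (-1.96, adjusted p = 0.0052 from limma), 8 did not pass, and the median was -0.10. The log2 of the summed linear values of these 9 ranged over 9.19 to 9.47 in parous and 10.47 to 11.13 in virgin arrays. Sprr1a carried this sum: without it, an alternative chosen after seeing the data, the 8 others gave 7.97 to 8.13 in parous and 8.00 to 8.24 in virgin arrays.

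Of 8 further desmosome components 0 passed in limma (median -0.03; 2 lower at an unadjusted p under 0.05). The tetraspan protein gene Perp, needed for desmosome assembly in stratified epithelia, had log2 means of 9.80 ± 0.10 in parous and 10.49 ± 0.26 in virgin suspensions (SD, n = 4), a log2 fold change of -0.69 (adjusted p = 0.092), and periplakin (Ppl), a plakin of the cell cortex, had -0.49 (adjusted p = 0.36; both from limma). Of 13 adherens junction genes 0 passed in limma (median -0.17; 5 lower and 1 higher at an unadjusted p under 0.05), with the largest changes in P-cadherin, Cdh3 (-0.71, adjusted p = 0.15), and the nectin gene Nectin1 (-0.53, adjusted p = 0.095; both from limma). E-cadherin (Cdh1) had -0.33 and beta-catenin (Ctnnb1) -0.12. Of 6 hemidesmosome genes 0 passed in limma (median -0.06; 2 lower at an unadjusted p under 0.05), with -0.59 for the collagen Col17a1 and -0.27 for the integrin Itga6.

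Transcription factors known to act on epithelial junction genes were taken as a further list. Of 15, 0 passed in limma (median 0.01; 3 lower and 4 higher at an unadjusted p under 0.05). The largest values were -0.74 for the epithelial repressor Ovol1 (adjusted p = 0.16) and -0.60 for the basal factor Trp63 (adjusted p = 0.37; both from limma). Among 8 sheddases, kallikreins and kinases that act on desmosomal cadherins 0 passed in limma (median -0.06; 2 lower and 1 higher at an unadjusted p under 0.05), with -0.50 for the kinase Src and -0.42 for the sheddase Adam10 (adjusted p = 0.14 and 0.12 from limma).

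**Figure D5:**
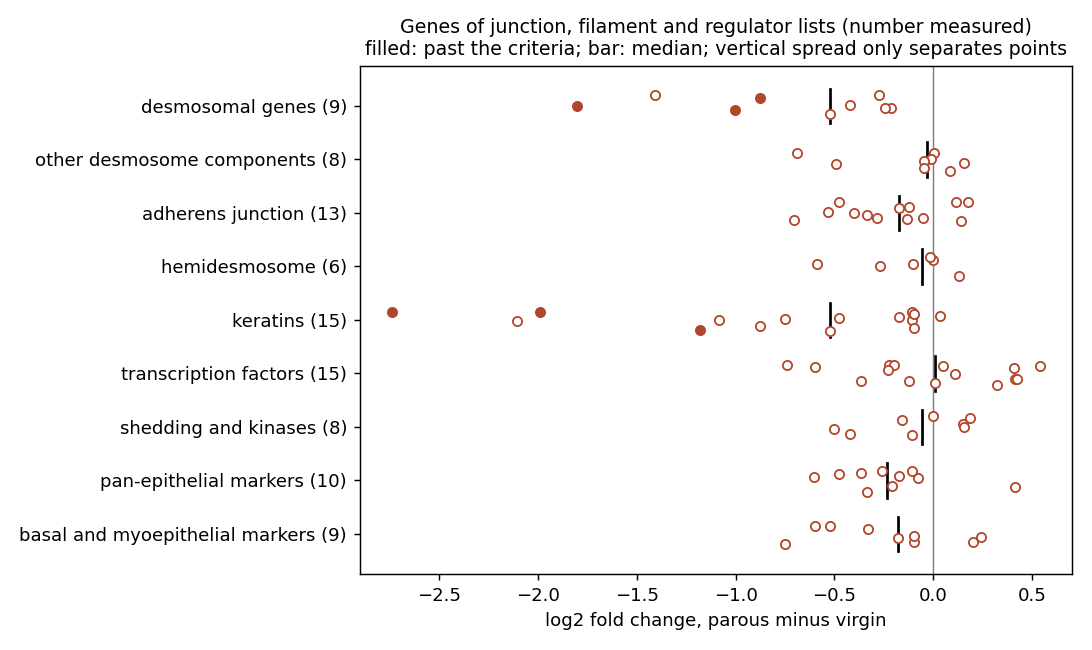
Change of each gene of 9 lists on the log2 scale (parous minus virgin), with the number of genes measured in brackets. Filled points are genes past the criteria and bars mark list medians. Filled points occur among the desmosomal genes and the keratins, whose medians are both -0.52.

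Markers of the cell types in the suspension gave the following values beside these changes, and their part in them was not tested. Of 9 basal and myoepithelial markers 0 passed in limma (median -0.18; 3 lower at an unadjusted p under 0.05), with the largest values for Krt14 and Trp63. All 3 hormone-sensing luminal markers had log2 fold changes below 0 (median -0.91), with -1.18 for Foxa1 and -0.91 for Pgr (adjusted p = 0.12 and 0.31 from limma), and 4 of 5 luminal progenitor markers were above 0 (median 0.31), with 0.35 for both Cd14 and Elf5. The log2 of the summed linear values was 10.08 to 10.53 in parous and 10.63 to 11.75 in virgin arrays for the hormone-sensing list, and 13.13 to 13.20 in parous and 12.77 to 13.07 in virgin arrays for the progenitor list. All 9 proliferation markers were below 0 (median -1.33), with -2.04 for Bub1 and -1.77 for Ccna2 (adjusted p = 0.33 and 0.27 from limma). Medians of leukocyte, endothelial, fibroblast and adipocyte markers were 0.14, 0.23, 0.17 and 0.14, with the largest values for Itgax and Cd68 (-0.87 and 0.28), Lyve1 and Tek (0.83 and 0.42), Pdgfra and Lum (0.92 and 0.63), and Lep and Plin1 (both 0.20). In limma 0 genes of these 8 lists passed. At an unadjusted p under 0.05, which 6.14% of all probe sets passed as lower and 5.26% as higher, all 9 proliferation markers and 2 hormone-sensing markers were lower, 3 progenitor markers were higher, 2 leukocyte markers were lower and 1 higher, 2 fibroblast markers were higher, and 0 endothelial and 0 adipocyte markers were either.

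The genes whose pattern was most like that of Dsc2 over the 8 arrays were Pon2, Dsp, Plekhh1, Cldn6, Mfn2, Gnb5, Srf and Csrp1, with Pearson r between 0.983 and 0.993. They were sought among 13062 probe sets that named 1 gene and had a mean above the median of all probe sets, of which 2.02% had r over 0.9. All arrays share the parous and virgin groups, so any gene that differs between them correlates with Dsc2. After the mean of each group was removed, r with Dsc2 was 0.82 for Dsp and 0.72 to 0.89 for all 8 genes, which were chosen for the r over all arrays. Among the members the r within groups was 0.83 for Dsg2, 0.74 for Jup, 0.69 for Pkp3, 0.64 for Pkp2, 0.23 for Dsg3, 0.19 for Pkp1 and 0.07 for Dsc3, as a description over 8 arrays. How many of all probe sets reach such values within groups was not computed. Of the genes named here besides Dsp, Plekhh1 passed with a log2 fold change of -0.98 (adjusted p = 0.0067 from limma). So did Cldn6, a claudin of tight junctions, at -1.47 (adjusted p = 0.0027 from limma). Srf, the serum response factor that drives actin genes, passed at -0.71 (adjusted p = 0.037 from limma). The paraoxonase Pon2 had -0.47 (limma adjusted p = 0.039), below the 1.5-fold criterion. Mfn2 (-0.17), Gnb5 (-0.29) and Csrp1 (-0.23) did not pass (adjusted p = 0.35, 0.15 and 0.23 from limma).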

How the data were processed

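Amplified RNA of the cell suspensions was hybridized to Affymetrix arrays. The deposited log2 values were made by the authors with the rma function of affy (version not given in the sources used here). No scanner files were used, so background and summarization could not be varied. Probe sets were named through the array annotation and RefSeq gene identifiers. Parous and virgin arrays were compared in R 4.3.3 with limma 3.58.1 (lmFit, eBayes, no covariate, 2-sided), the design of the methods, on all 34760 probe sets, with Benjamini-Hochberg adjustment. Intervals are at 95%, from limma for genes and from an equal-variance t distribution for differences between isoforms. Lists used for each gene the probe set with the highest mean. Named were all members, per list up to 4 passing genes or the 2 with the largest change, and the 8 genes most like Dsc2. Krt5, Krt8, Krt15, Krt18, Krt19, Cdh1, Ctnnb1 and Epcam were named beside them after their values were seen. So were Mki67, Top2a, Myh11, Mylk, Elf3, the other pan-epithelial markers, and genes given as neighbours or dim markers. The members and lists were chosen with earlier results of these data known. The labels call the pools biological replicates. The number of arrays limits the precision. Alternatives covered replicate blocks, left-out arrays, normalization, variance models, filters and criteria.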

Additional observations from a re-analysis of the deposited data

Results flagged for a closer look

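Of 104 groups of 4 arrays tested, 5 had an array far from the other 3, past Dixon's 95% critical value for 4 samples, and chance alone gives about 5% of such groups. None was a group of a desmosomal gene measured here or of a difference between isoforms. Parous replicate 4 was low for Col17a1 (8.17, others 8.41 to 8.43), Foxa1 (8.65, others 9.34 to 9.48) and Lep (4.63, others 5.00 to 5.02). Parous replicate 2 was high for Gnb5 (8.09, others 7.96 to 7.98) and virgin replicate 2 for Plekhh1 (7.57, others 7.26 to 7.30).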

How the results depend on the processing

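Dsp and Pkp1 passed in each of 17 alternative fits and Dsc2 in 16, the exception being an equal-variance test without moderation (log2 fold change -1.80, adjusted p = 0.083). A criterion of 2-fold left 2 members, Dsc2 and Dsp. With 1 array left out, Dsc2 ranged from -1.90 to -1.68, Dsp from -1.05 to -0.97 and Pkp1 from -0.90 to -0.85, and all 3 passed each time. The 6 other members stayed below 0 and did not pass in any fit. Dsc3 came closest, at an adjusted p of 0.054 without virgin replicate 1. The number of probe sets past the criteria moved more than the members: 138 in the fit reported, 49 with the replicate number as a block, 11 without moderation, and 42 to 179 with 1 array left out (75, 56, 42 and 63 without parous replicates 1 to 4 and 78 without virgin replicate 2). Same-numbered arrays did not deviate together throughout (correlations of 0.12, 0.18, -0.06 and 0.31 for replicates 1 to 4). Between parous and virgin arrays of different numbers the correlations ranged from -0.26 to 0.19. Parous and virgin pools came from 4 experiments with both groups in each, and neither labels nor methods say whether a replicate number names an experiment, so the pairing is unsettled. Within numbers, 7 of the 9 members were below 0 in all 4 pairs, a count for which no share over all probe sets was computed. Among them were Dsg2 (-0.41, -0.66, -0.40 and -0.62), Jup (-0.21, -0.25, -0.11 and -0.29) and Pkp3. With the block these genes did not pass (adjusted p = 0.14, 0.33 and 0.30 from limma). Dsg3 and Pkp2 were below 0 in 3. Pkp2 minus Pkp3 was above 0 in all 4. The block left the 3 member calls in place (adjusted p of 0.020 for Dsc2, 0.027 for Dsp and 0.037 for Pkp1 from limma) and, among the genes of the lists, added 1 call in the hormone-sensing luminal markers. Without virgin replicates 2 and 4 the difference Pkp1 minus Pkp3 was -0.68, and the changes relative to epithelial markers were 0.15 for Pkp2 and -0.048 for Pkp3; the cause was not tested. Paired or with arrays left out, exact tests of 4 pairs or 4 against 3 arrays cannot go below p = 0.125 and 0.057, so those settings give values only. Without Sprr1a, the summed keratinocyte markers differed by -0.12 in place of -1.47. Without dim probe sets, Dsc3 and Dsg3 were not tested.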
